A study of Mus musculus with 6 samples.

Results

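The genes of the sarcomere scaffold and of muscle calcium release were followed in the soft palate of mouse embryos lacking Dlx5, which encodes a homeodomain factor that patterns the lower jaw and neighbouring tissue. The set was chosen by gene symbol, with earlier results of these data known, so its contrasts with all genes are descriptions. It holds 37 of the 49492 genes in the count table. These are thin filament, Z-disc, M-band, titin-linked and triad genes, with myosins and troponins left out. Libraries came from 3 wild type controls and 3 Dlx5-/- knockouts, all at stage E14.5, and all were made from RNA of the posterior palate. The sources used here do not give the strain, the structure of the Dlx5 allele or whether embryos were pooled. They also do not state that each library is a different embryo, so the p-values reflect only how these 6 samples vary, and that variation may be technical.

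The sarcomere is the contractile unit of striated muscle. Actin thin filaments are anchored in the Z-disc and slide along thick filaments that are tied together in the M-band, while the giant protein titin spans from the Z-disc to the M-band. At the triad the surface membrane meets the sarcoplasmic reticulum, where calcium is stored by calsequestrin, released through the ryanodine receptor and pumped back by SERCA. Most of these genes are switched on together when myoblasts fuse and differentiate, and the myogenic factors (which bind E-boxes), MEF2 factors and serum response factor (which binds CArG boxes) are known to act at many of their promoters. The soft palate muscles form from myoblasts of the pharyngeal arches that grow among neural crest mesenchyme.

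Promoters of 5 of these genes are shown, as examples of those 3 motifs in genes of the thin filament, thick filament, assembly and triad groups. Each is the stretch before the RefSeq start on GRCm38.p6, read 5′ to 3′ on the strand of the gene, and bases in annotated exons of the gene were left off. Capitals mark a CArG box in Acta1 (chr8:123894776-123895025, minus strand) and Actc1 (chr2:114052888-114053125, minus strand). They mark a MEF2 site in Casq2 (chr3:102086165-102086414, plus strand) and Klhl41 (chr2:69669870-69670119, plus strand). All other capitals mark E-boxes of the form CANNTG, including the only match in Mybph (chr1:134193198-134193447, plus strand).

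Acta1: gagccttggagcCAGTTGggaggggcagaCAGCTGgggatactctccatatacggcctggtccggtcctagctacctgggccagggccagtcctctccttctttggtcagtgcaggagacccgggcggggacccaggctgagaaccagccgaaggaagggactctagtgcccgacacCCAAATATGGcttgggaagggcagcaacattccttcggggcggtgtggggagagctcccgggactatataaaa
Actc1: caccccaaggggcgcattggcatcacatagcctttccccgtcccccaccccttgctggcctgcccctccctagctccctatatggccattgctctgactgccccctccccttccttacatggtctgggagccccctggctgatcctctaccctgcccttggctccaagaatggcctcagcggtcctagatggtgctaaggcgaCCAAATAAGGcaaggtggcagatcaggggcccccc
Mybph: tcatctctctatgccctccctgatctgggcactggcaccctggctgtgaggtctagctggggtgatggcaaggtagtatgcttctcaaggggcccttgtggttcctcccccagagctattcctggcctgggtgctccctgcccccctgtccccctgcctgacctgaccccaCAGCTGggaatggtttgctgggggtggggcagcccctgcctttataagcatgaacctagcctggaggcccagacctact
Casq2: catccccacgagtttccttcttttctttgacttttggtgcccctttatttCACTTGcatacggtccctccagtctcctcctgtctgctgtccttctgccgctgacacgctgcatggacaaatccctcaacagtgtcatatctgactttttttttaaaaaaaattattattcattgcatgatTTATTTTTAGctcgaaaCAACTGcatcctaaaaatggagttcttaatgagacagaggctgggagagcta
Klhl41: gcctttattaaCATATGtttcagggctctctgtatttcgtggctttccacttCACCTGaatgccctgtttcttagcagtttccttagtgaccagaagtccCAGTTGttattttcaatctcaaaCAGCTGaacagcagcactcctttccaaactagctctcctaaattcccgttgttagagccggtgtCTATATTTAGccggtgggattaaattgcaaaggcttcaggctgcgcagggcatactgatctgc

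RefSeq entries matched 28 of the 37 genes. In the 250 bases before the start, searched on both strands, a CArG box was found in 4 of these 28 (Acta1, Actc1, Ldb3 and Myom1), and in 1.40% of the promoters of all 27025 genes in the same table. It lay 73 bases before the start in Acta1 and 47 in Actc1. A MEF2 site was found in 5 (Casq2, Klhl41, Myoz2, Ttn and Xirp2), against 3.01% of all promoters, and lay 69 bases before the start in Casq2 and 63 in Klhl41. E-boxes were found in 23 of 28, against 66.0% of all promoters. The letters of none of the 3 motifs occurred in this window for Tmod1, Ryr1 and Smpx, and for Tmod1 the whole window lies within annotated exons of the gene. The same holds for the window of Unc45b, whose 2 E-boxes are nevertheless counted here. Windows of some other genes also hold exon bases, and that of Tpm1 has 57 of its 250 bases outside them. Among the 10913 tested genes with an entry the shares were 1.14% for the CArG box, 1.54% for the MEF2 site and 56.8% for the E-box. These matches describe sequence, and binding was not tested.

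The libraries held 6891798 to 11922442 estimated counts. Dlx5 had 242, 193 and 113 counts in controls 1, 2 and 3 and 7, 15 and 17 in knockouts 1, 2 and 3, so every library matched its label. This gave a log2 fold change of -3.93 (SE 0.32) and an adjusted p of 0.0205 by the quasi-likelihood test of edgeR. Knockout 3 stood apart, with a mean correlation of 0.959 with the other libraries against 0.970 to 0.976 for the rest, and it held brain transcripts: 9 brain genes summed to 239.6 CPM (counts scaled to the TMM-adjusted library total), against 38.5 to 83.6 CPM elsewhere. All 12 palate mesenchyme genes listed passed the filter on low counts, as did 21 of 23 myogenic genes, so transcripts of both lists were present. All 14 neuron genes and all 10 oral epithelium genes listed passed too, so passing the filter does not identify the tissue.

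All 37 genes had counts, and 34 passed the filter of a mean of at least 1 CPM, each with more than 1 CPM in every library. The estimate was higher in the knockout for 33 of these 34 and lower for Tpm1, against 52.5% of all 16218 genes with a higher estimate. Their median on the log2 scale was 0.96, beside 0.014 for all genes, and 14 of 34 had an estimate of at least 1 (41.2%, against 2.3% of all genes). None passed the test, in which 0% of all genes were called higher and 0.00617% lower (edgeR, adjusted p under 0.05). At an unadjusted p under 0.05 edgeR gave 19 of 34 higher and 0 lower, beside 5.61% higher and 7.23% lower of all genes. DESeq2, run as an alternative, called 5 of the 32 genes to which it gave an adjusted p (Tmod1, Mybph, Tpm2, Mybpc1 and Casq2), all higher, beside 0.858% of all genes. Limma-trend and edgeR with a filter of 5 CPM each called Tmod1 higher, beside 0.0555% and 0.0479% of all genes, as did edgeR without knockout 3 (0.074%), and edgeR without a filter called 13 of 37 (0.817%). In bulk tissue, more muscle cells and more RNA per muscle cell cannot be told apart.

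**Figure D1:**
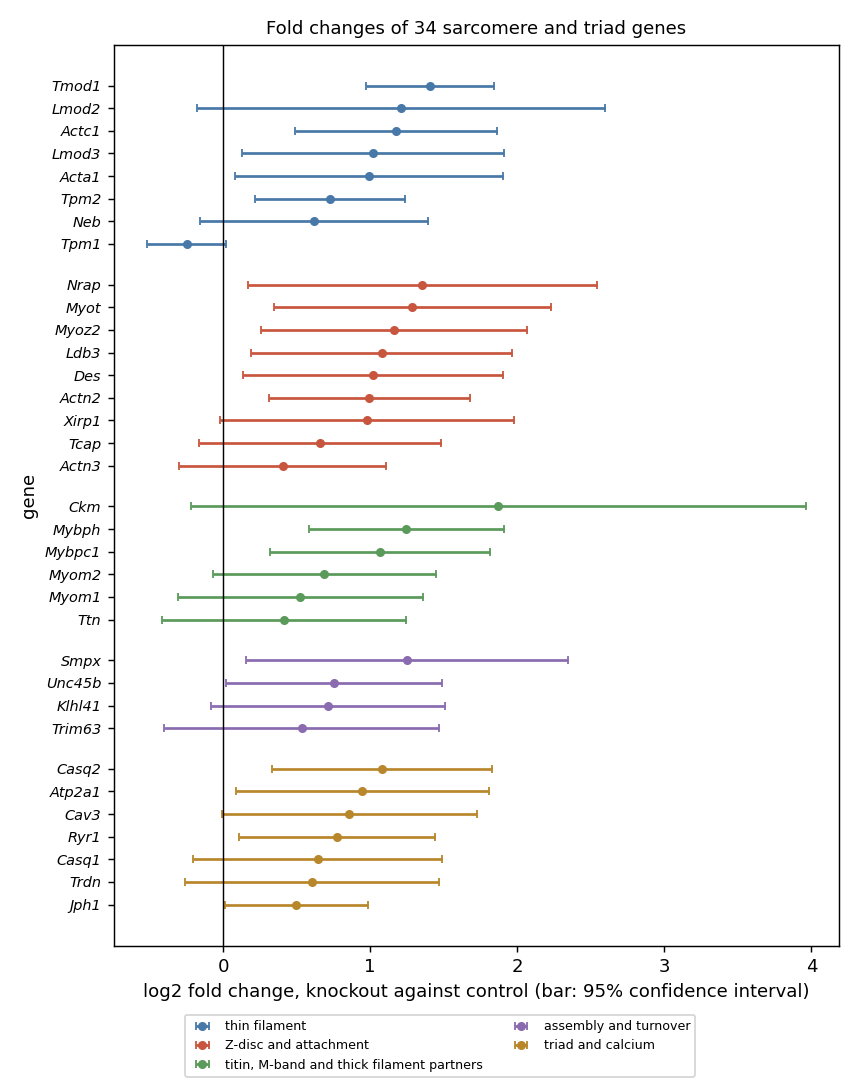
Log2 fold change of 34 sarcomere and triad genes (points, knockout against control, edgeR) with 95% confidence intervals (bars), grouped and coloured by role, 3 libraries per group. All points but that of Tpm1 lie above 0, and the interval of Tmod1 is the narrowest among those with estimates above 1.

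Among thin filament genes, 7 of 8 had higher estimates, and the median on the log2 scale was 1.01. Tmod1, a tropomodulin that caps the pointed end of the actin filament, lies at chr4:46038935-46116032 on the plus strand (GRCm38). It measured 4.95, 5.75 and 5.16 CPM in controls 1, 2 and 3 and 11.6, 15.3 and 15.3 CPM in knockouts 1, 2 and 3. Every knockout library was at least 2.19 times the control mean, and the groups were far apart, since the controls differed among themselves by a coefficient of variation of 7.80%. On the log2 scale the difference was 1.41 (SE 0.19, 95% confidence interval 0.97 to 1.84), with an adjusted p of 0.0528 in edgeR, just outside the threshold. Tmod1 passed in 6 of 14 alternatives, among them DESeq2 (adjusted p = 3.41e-05), limma-trend (0.0429) and edgeR without knockout 3 (0.0338), over a range of adjusted p from 3.41e-05 to 0.231. Its exons overlap those of Tstd2 on the opposite strand by up to 1287 bases, and Tstd2 ranged from 26.1 to 34.7 CPM with a log2 fold change of 0.23, and none of the 6 deposited values of Tmod1 was whole. Without strand, reads of such a pair cannot be told apart. In all, 16 of the 37 members have an annotated exon overlap with a gene on the opposite strand.

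Actc1, the actin of the heart and of embryonic skeletal muscle, measured 137, 178 and 118 CPM in the controls and 179.9, 439 and 361 CPM in the knockouts. Knockout 1 lay just above the highest control, and the other two lay well above it. The estimate was 1.18 on the log2 scale (SE 0.30, adjusted p = 0.139 in edgeR). Acta1, the actin of adult skeletal muscle, measured 81.8, 115 and 79.8 CPM in the controls and 96.3, 320.3 and 135 CPM in the knockouts. Here knockout 1 lay within the controls, and the estimate of 0.99 (SE 0.40; adjusted p = 0.339, edgeR) rested mainly on knockout 2: without it the value was 0.32. Reads of the actins can be shared, since 1.82% of 50-base windows of the Acta1 transcripts occur in another actin gene, and none of its 6 deposited values was whole.

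Tpm2, a tropomyosin that lies along the actin filament and gates myosin, measured 151, 193 and 136 CPM in the controls and 184, 349 and 263 CPM in the knockouts. Knockouts 2 and 3 were above all controls and knockout 1 was among them (log2 fold change 0.73, SE 0.22; adjusted p = 0.213, edgeR). Tpm1, a tropomyosin made in muscle and in many other cells, measured 477, 530 and 543 CPM in the controls and 417, 508 and 380.5 CPM in the knockouts. It was the only member with a lower estimate (-0.25, SE 0.12; adjusted p = 0.428, edgeR), and its groups overlapped through knockout 2. Neb encodes nebulin, the giant protein that runs along the thin filament. It measured 100.4, 152 and 76.1 CPM in the controls and 102, 251 and 154 CPM in the knockouts (0.62, SE 0.34; adjusted p = 0.494, edgeR), so that knockout 3 was level with control 2 and knockout 2 alone stood clear of it.

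The leiomodins, which nucleate actin filaments, had estimates of 1.21 for Lmod2 and 1.02 for Lmod3. Lmod2 was carried by knockout 2, at 8.67 CPM against 1.51 to 2.48 CPM in all other libraries, and without that library its value was 0.18. Tmod4, the tropomodulin of adult skeletal muscle, had 2, 4 and 2 counts in controls 1 to 3 and then 2, 3 and 7 in knockouts 1 to 3, too few for the filter, which leaves Tmod1 as the measurable member of this pair.

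**Figure D2:**
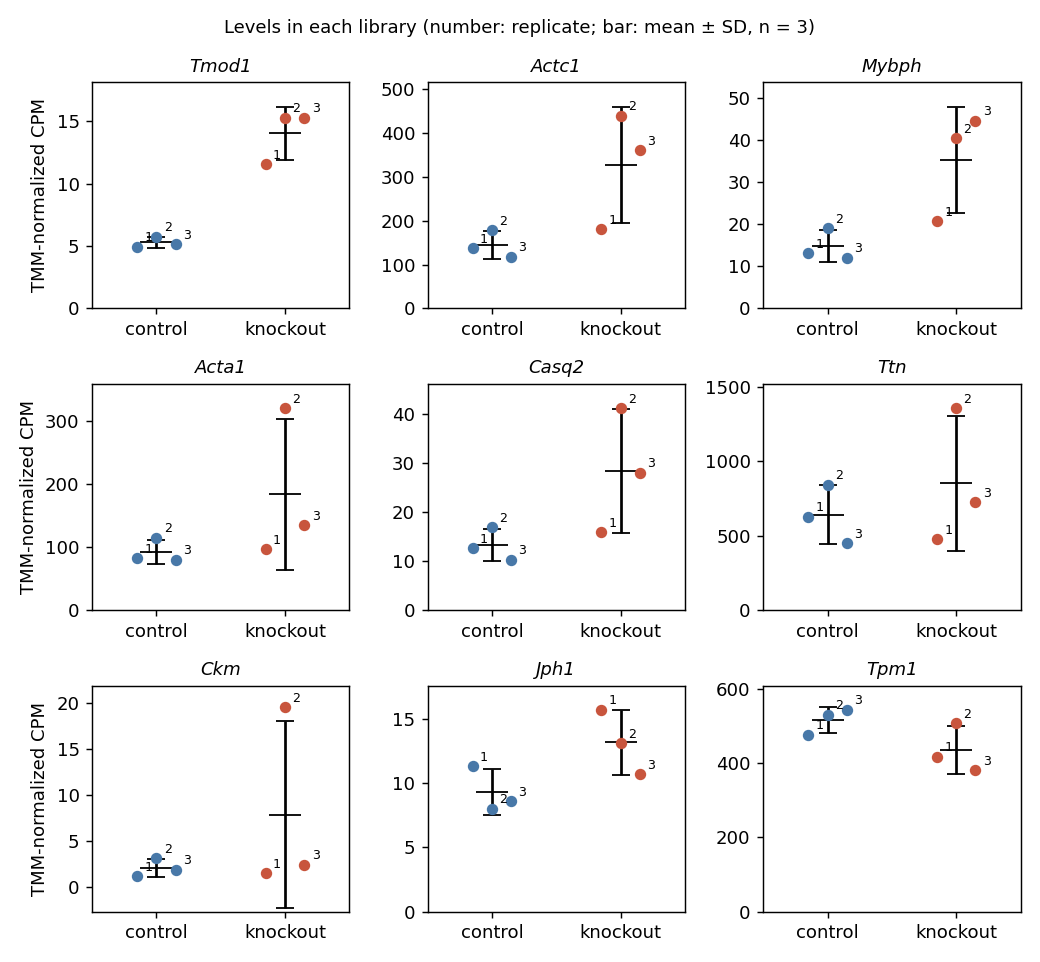
Level (TMM-normalized CPM, linear axes) of 9 genes in each control and knockout library; points are libraries numbered by replicate, and bars are mean ± SD, n = 3. The knockout points of Tmod1 sit between 11.6 and 15.3 CPM, above all controls, while those of Ttn, Ckm and Acta1 spread widely with knockout 2 highest.

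Z-disc genes had higher estimates in all 9 members that passed the filter, with a median of 1.02 and a range of 0.41 to 1.35. Actn2, the alpha-actinin that crosslinks actin in the Z-disc, measured 49.8, 71.4 and 40.6 CPM in the controls and 66.8, 152 and 106 CPM in the knockouts. Knockout 1 fell within the controls while the other two exceeded them (log2 fold change 0.99, SE 0.30; adjusted p = 0.204, edgeR). Actn3, the alpha-actinin of fast fibres, showed a smaller difference (0.41): 6.50 to 7.17 CPM in 5 libraries and 13.8 CPM in knockout 2, without which its estimate turned to -0.041. Des encodes desmin, the intermediate filament that links Z-discs. Its levels were 43.0, 50.4 and 27.8 CPM in the controls and 41.9, 134 and 71.9 CPM in the knockouts (1.02, SE 0.39; adjusted p = 0.315, edgeR), again with knockout 1 among the controls.

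Myot encodes myotilin, an actin crosslinker of the Z-disc. It measured 2.69, 6.07 and 2.44 CPM in the controls and 5.55, 11.3 and 11.1 CPM in the knockouts (1.29, SE 0.41; adjusted p = 0.228, edgeR). Control 2 lay above knockout 1, so the groups overlapped. Myoz2, which tethers calcineurin to the Z-disc, measured 4.09, 4.37 and 2.01 CPM in the controls and 4.49, 11.2 and 8.2004 CPM in the knockouts (1.16, SE 0.39; adjusted p = 0.260, edgeR). Ldb3, a PDZ-LIM protein of the Z-disc, measured 7.86, 10.4 and 7.60 CPM in the controls and 9.21, 30.1 and 15.8 CPM in the knockouts (1.08, SE 0.39; adjusted p = 0.288, edgeR). Knockout 1 cleared the highest control by a narrow margin for Myoz2 and not for Ldb3.

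Of the other Z-disc and attachment genes, estimates were 1.35 for Nrap, which acts in myofibril assembly, 0.98 for the actin-binding Xin gene Xirp1, and 0.66 for the titin cap Tcap. Nrap measured 2.75 to 3.01 CPM in the controls and 2.36, 12.7 and 6.997 CPM in the knockouts, so that 1 knockout lay below and 2 above all controls. Xirp2, with 1, 9 and 2 counts in controls 1 to 3 and then 5, 33 and 4 in knockouts 1 to 3, did not pass the filter, and 33 of those counts were in knockout 2.

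Titin, M-band and thick filament partner genes had a median of 0.88 over 6 members. Ttn, which encodes titin, measured 626, 843 and 450.1 CPM in the controls and 477, 1356 and 725 CPM in the knockouts. The groups overlapped: knockouts 1 and 3 were within the controls (log2 fold change 0.41, SE 0.36; adjusted p = 0.692, edgeR), and without knockout 2 the estimate was -0.10. The M-band proteins myomesin 1 and 2 (Myom1, Myom2) had estimates of 0.52 and 0.69. Exons of Myom1 overlap those of Myl12a on the opposite strand by up to 207 bases, and Myl12a measured 120 to 157 CPM. Mybpc1, the slow myosin-binding protein C, measured 15.8, 20.1 and 11.6 CPM in the controls and 19.7, 50.1 and 31.0 CPM in the knockouts (1.07, SE 0.33; adjusted p = 0.211, edgeR). Its fast relative Mybpc2 was barely present, with 0, 2 and 3 counts in controls 1 to 3 and then 0, 3 and 0 in knockouts 1 to 3.

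Mybph, the myosin-binding protein H of thick filaments, had the second smallest p-value of the set. It measured 13.1, 19.1 and 12.04 CPM in the controls and 20.8, 40.4 and 44.5 CPM in the knockouts, with every knockout above every control. The difference on the log2 scale was 1.25 (SE 0.29, 95% confidence interval 0.58 to 1.91) with an adjusted p of 0.119 in edgeR. Its exons overlap those of Adora1, the adenosine A1 receptor gene on the opposite strand, by up to 1162 bases. Adora1 measured 5.71 to 7.04 CPM in 5 libraries and 22.4 CPM in knockout 3, and without knockout 3 the estimate for Mybph was 1.03. As for Tmod1, none of its deposited values was whole.

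Ckm, the muscle creatine kinase that buffers energy at the M-band, measured 1.18, 3.16 and 1.86 CPM in the controls and 1.54, 19.5 and 2.41 CPM in the knockouts. Its log2 fold change of 1.87 (SE 0.91; adjusted p = 0.444, edgeR) was the highest of the set but came from knockout 2, which was 9.43 times the control mean. Without that library the value was -0.083. Knockout 2 also had the highest level of most other members, though by smaller factors.

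Among genes of assembly and turnover, Unc45b, a chaperone that folds myosin, had an estimate of 0.75 and Klhl41, a stabiliser of the thin filament, of 0.72. Trim63, a ubiquitin ligase of muscle wasting, had one of 0.53 and Smpx, a small muscle protein of the costamere, of 1.25. Smpx measured 1.94, 3.97 and 1.00 CPM in the controls and 4.25, 8.24 and 4.66 CPM in the knockouts, with 7 to 76 counts behind each value. Its groups did not overlap, but control 2 and knockout 1 were close.

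Triad genes had higher estimates in all 7 members, with a median of 0.77. Ryr1, the calcium release channel of skeletal muscle, measured 19.2, 16.4 and 12.5 CPM in the controls and 16.1, 37.9 and 28.4 CPM in the knockouts (0.77, SE 0.29; adjusted p = 0.314, edgeR). Atp2a1, which encodes the calcium pump SERCA1, measured 14.53, 21.5 and 10.5 CPM in the controls and 17.1, 47.4 and 26.5 CPM in the knockouts (0.95, SE 0.37; adjusted p = 0.334, edgeR). In both, knockout 1 was within the controls and knockouts 2 and 3 were above them. Exons of Atp2a1 overlap those of Rabep2 on the opposite strand by up to 494 bases. Rabep2 measured 13.8 to 17.3 CPM, with a log2 fold change of -0.050, and 1 of the 6 deposited values of Atp2a1 was whole.

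The calsequestrins store calcium inside the reticulum. Casq2, the form of heart and slow or immature muscle, measured 12.7, 16.9 and 10.3 CPM in the controls and 15.9, 41.3 and 28.1 CPM in the knockouts (1.08, SE 0.33; adjusted p = 0.208, edgeR). Casq1, the form of fast muscle, measured 6.03, 3.80 and 3.01 CPM in the controls and 4.37, 9.86 and 5.94 CPM in the knockouts (0.64, SE 0.37; adjusted p = 0.522, edgeR). Knockout 3 exceeded all controls for Casq2 and fell within them for Casq1; the difference between the 2 fold changes was not tested.

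Of the remaining triad members, Cav3, the caveolin of the muscle membrane, had an estimate of 0.86 and Trdn, the triadin that anchors calsequestrin to the channel, of 0.60. Jph1, the junctophilin that holds the membranes of the triad together, was ordered differently. It measured 11.3, 8.01 and 8.60 CPM in the controls and 15.7, 13.1 and 10.7 CPM in the knockouts (0.50, SE 0.21; adjusted p = 0.378, edgeR). Its highest level was in knockout 1, the library in which most members were near the controls.

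Per length of annotated exons, the most abundant members in the controls were Actc1, at 89.2 ± 19.1 CPM per kilobase (SD, n = 3), Tpm1 at 79.7 ± 5.44, Acta1 at 60.0 ± 12.8 and Tpm2 at 55.0 ± 10.1. Neighbours among these 4 lay within the summed SDs of each other, apart from Tpm1 and Acta1, which differed by slightly more. Actn2 followed at 14.2 ± 4.17, Des at 10.8 ± 3.07, Mybph at 6.34 ± 1.63 and Ttn at 5.48 ± 1.69 CPM per kilobase. Levels of Casq2 (4.87 ± 1.22) were above those of Casq1 (2.19 ± 0.802), and Actn2 was above Actn3 (2.34 ± 0.113). The lowest were Nrap at 0.523 ± 0.0239 and Trdn at 0.229 ± 0.0195 CPM per kilobase, and Tmod1 stood at 1.34 ± 0.104, rank 25 of 34. Exon length was taken over all transcripts of a gene, so genes with many isoforms, such as Tpm1 and Ttn, come out lower than per transcript.

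The members varied mainly between libraries. Knockout 2 was the highest of the 6 libraries for 30 of 34 members (16.8% of all genes) and above every control for 33 (29.9%). Knockout 3 was above every control for 28 (32.3% of all genes) and knockout 1 for 8 (30.2%), while knockout 1 lay within the range of the controls for 22 (40.6%) and below it for 4 (29.2%). Median levels relative to the control mean were 1.06, 2.78 and 1.74 in knockouts 1, 2 and 3. The controls were ordered as well: control 2, the deepest library, was the highest control for 24 members and control 3, the shallowest, the lowest control for 23 (each 33.6% of all genes), with medians of 0.947, 1.22 and 0.797 in controls 1, 2 and 3.

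**Figure D3:**
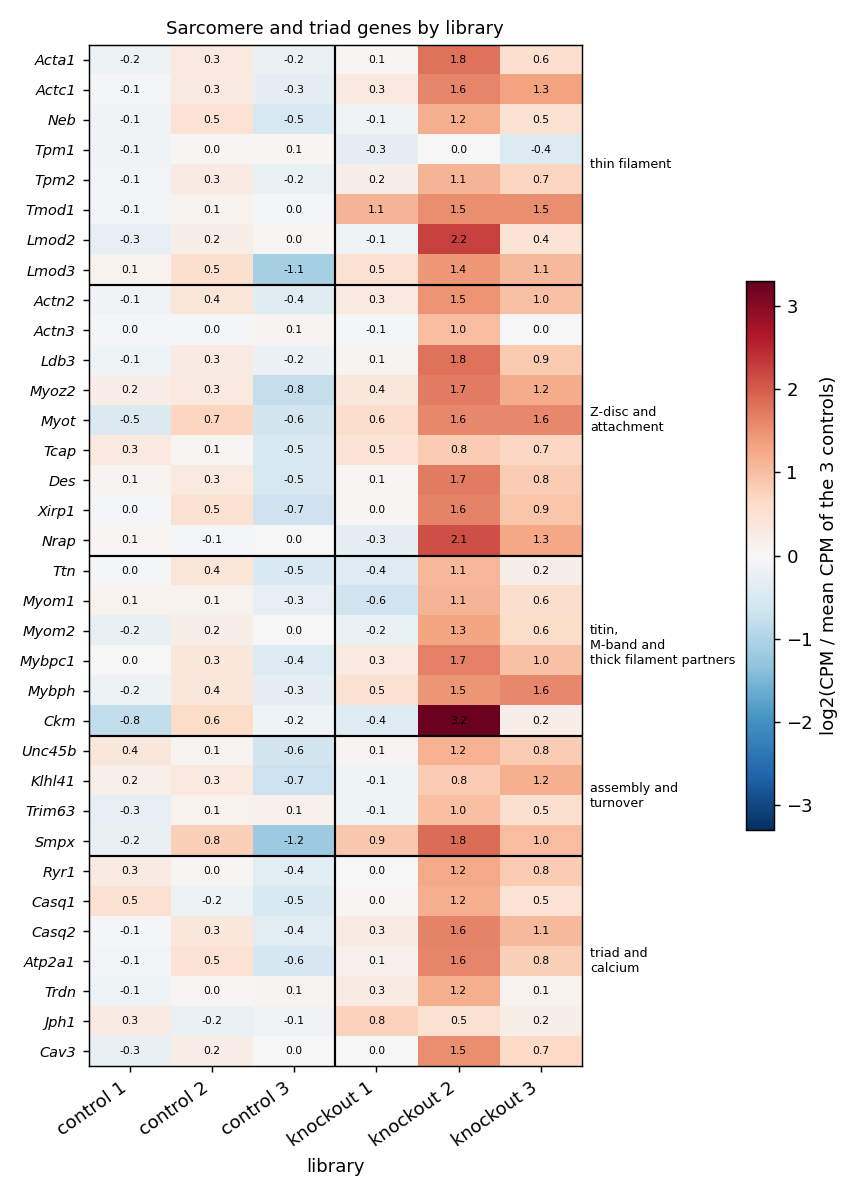
Log2 ratio of the CPM of each of 34 genes (rows, grouped by role) to its mean in the 3 controls, in each library (columns); red is above and blue below the control mean. The knockout 2 column is red in 33 rows and knockout 1 is near white in most, with Tmod1 (1.13) as its highest value.

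The groups did not overlap for 7 members (Actc1, Tmod1, Myoz2, Tcap, Mybph, Smpx and Trdn), all higher in the knockout, against 9.49% of all genes higher and 9.7% lower. This count was 28 without knockout 1 (14.9% of all genes) and 19 without control 2 (13.6%), and it was 10, 7, 7 and 8 without control 1, control 3, knockout 2 and knockout 3, beside 15.3%, 13.2%, 14.4% and 15.1% of all genes. Among the 7, Trdn measured 2.33 CPM in its lowest knockout and 2.29 CPM in its highest control. For Tcap these levels were 2.24 and 2.05 CPM, from 19 counts in each library. The median coefficient of variation of the members was 25.4% within controls and 42.4% within knockouts, against 9.07% and 10.8% for the 12513 genes with a mean of at least 5 CPM. Over the 6 libraries the correlation of a member's log2 level with the mean of the other members was above 0.8 for 31 of the 34 members, but 0.79 for Tmod1, 0.33 for Jph1 and -0.22 for Tpm1; the points share libraries and their group difference.

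Without knockout 2 the members' median was 0.48 on the log2 scale, with 30 of 34 estimates above 0, and without knockout 1 it was 1.23. Without knockout 3, the library with brain transcripts, it was 1.00, beside 0.96 with all libraries. The part of the brain transcripts in the result was not tested. The row of an 18S ribosomal RNA gene held 13.2% to 15.2% of counts in the controls and 17.4%, 21.6% and 7.82% in knockouts 1, 2 and 3. It was highest in knockout 2, where the members were highest. It was lowest in knockout 3, where the members' median was 1.74 times the control mean. The part of this row in the result was not tested.

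Other sarcomere and triad genes outside the set had a smaller median of 0.38 over 47 of 54 that passed the filter. Of these 47, 37 had higher estimates, against 52.5% of all genes. None passed the test (edgeR, smallest adjusted p 0.114). At an unadjusted p under 0.05 edgeR gave 15 higher and 1 lower, beside 5.61% higher and 7.23% lower of all genes. The list includes genes that are also active outside muscle. Itgb1bp2, the integrin-binding protein melusin of striated muscle, measured 5.02 to 5.91 CPM in the controls and 8.50, 16.6 and 11.8 CPM in the knockouts (1.13). Mypn, the Z-disc protein myopalladin, had an estimate of 1.42 and Sln, the SERCA regulator sarcolipin, of 1.16. Tmod2, the tropomodulin of neurons, had the opposite sign to Tmod1, at 125 to 144 CPM in the controls and 101 to 115 CPM in the knockouts (-0.34, SE 0.09; adjusted p = 0.149, edgeR).

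Myosin and troponin genes had a median of 1.04 over 16 genes, and their medians in knockouts 1, 2 and 3, as differences of log2(CPM + 1) from the control mean, were 0.31, 1.56 and 0.92. The same values for the sarcomere and triad members were 0.09, 1.40 and 0.80. Myogenic regulators and progenitor genes were ordered differently, at 0.19, 0.63 and 0.87, with knockout 3 highest. Myod1, the master regulator of muscle fate, measured 12.8, 14.1 and 9.60 CPM in the controls and 15.7, 21.0 and 26.3 CPM in the knockouts (0.78; adjusted p = 0.171, edgeR). Myog, which drives terminal differentiation, measured 16.5, 20.7 and 11.2 CPM in the controls and 19.4, 44.4 and 45.3 CPM in the knockouts (1.16; adjusted p = 0.181, edgeR). Knockouts 2 and 3 were thus nearly equal for Myog, whereas knockout 2 was the highest knockout for 31 of the 34 members; this difference was not tested.

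**Figure D4:**
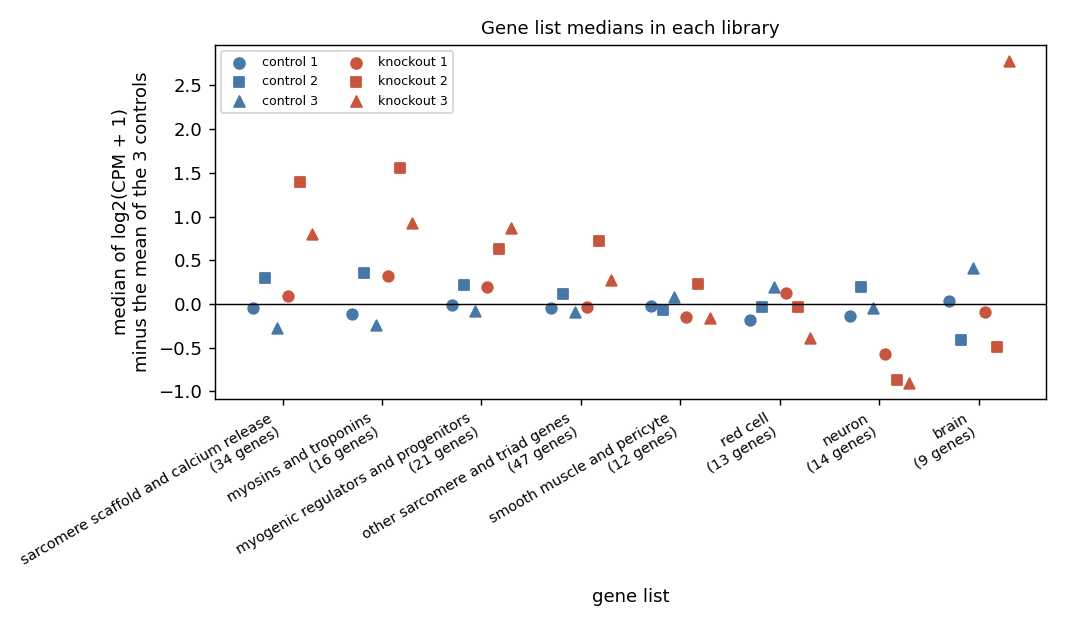
Median over the genes of each list of log2(CPM + 1) minus its mean in the 3 controls, for each library (blue controls, red knockouts; shapes mark replicates). The muscle lists share a high knockout 2, the neuron list is low in all knockouts (-0.57 to -0.90), and the brain list is high in knockout 3 (2.78).

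Markers of other cells that make some of these proteins were compared beside the members. Of 12 heart genes 4 passed the filter, with sums of 27.0 to 29.1 CPM in the controls and 15.5 to 48.5 CPM in the knockouts. The atrial markers Nppa and Myl7 were close to 0: Nppa had counts in knockout 3 only (3), and Myl7 had at most 1 count in any library. Other heart genes were not close to 0. Myh6 had 19, 19 and 8 counts in controls 1 to 3 and 6, 51 and 31 in knockouts 1 to 3. Gja5 had 170, 226 and 137 counts in these controls and 91, 170 and 257 in these knockouts. Nkx2-5 had 0 counts in the controls and in knockout 1 and 26 and 36 in knockouts 2 and 3. All 12 smooth muscle and pericyte genes passed, with a median estimate of -0.12 and sums of 396 to 423 CPM in the controls and 394 to 643 CPM in the knockouts. That list holds Des, which is a member here, and Acta2, the smooth muscle actin that is also made in immature skeletal muscle, at 77.1 to 93.1 CPM in the controls and 90.9 to 172 CPM in the knockouts.

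Red cells, which also make Tmod1, had 13 of 14 genes that passed, 9 with higher and 4 with lower estimates, a median of 0.11 and sums of 3720.3 to 4012 CPM in the controls and 3193 to 5533 CPM in the knockouts. The one red cell gene with an unadjusted p under 0.05 was Sptb, at 75.7 to 84.3 CPM in the controls and 35.1 to 55.9 CPM in the knockouts. Neuron genes had lower estimates in 12 of 14, with a median of -0.77 and sums of 3854 to 4887 CPM in the controls and 2016 to 2631 CPM in the knockouts. Tendon and cartilage medians were highest in knockout 2, as was that of the members. As differences of log2(CPM + 1) from the control mean, medians of 7 tendon genes were -0.22, 0.63 and 0.17 in knockouts 1, 2 and 3. Those of 9 cartilage genes were 0.72, 0.93 and -0.51 there, and 0.66, -0.55 and -0.038 in controls 1, 2 and 3. Cartilage thus differed from the members in knockout 3 (members 0.80) and in control 2 (members 0.29). The part of these other cells in the levels of the members was not tested.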

How the data were processed

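RNA of the posterior palate was sequenced in 3 control and 3 Dlx5-/- libraries, made with RNeasy columns and an Illumina TruSeq mRNA kit, per the labels' protocols. Mapping used mm10 as the build, and STAR 2.4.1d and Partek as tools, per the submitters' processing notes; their roles, the annotation, the counting and any use of strand are not stated there. The deposited table holds estimated counts, which were not scaled to a common total; 64.5% of values above 0.5 were whole within 0.001. A further 1 column, named as a wild type library, could not be matched to the labels and was left out.

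Estimated counts were rounded. Genes with a mean of at least 1 CPM (16218) were tested with edgeR 4.0.16 (R 4.3.3; quasi-likelihood, TMM factors, no block, Benjamini-Hochberg adjustment over all genes, threshold 0.05). SEs come from the F statistic. Alternatives were DESeq2 1.42.0, limma-trend (limma 3.58.1) on log2(CPM + 1) or log2(CPM + 0.5), other scalings and filters, a replicate block and each library left out, with the same genes kept. The test was tried on simulated counts. Full values are given for the 10 members with the smallest p and for 10 members that stand for the roles, and up to 4 genes from each other list; further members and genes were described after their values were seen. The members and lists were chosen with earlier results of these data known. Coordinates, exon lengths and overlaps came from GENCODE M21 (GRCm38, also called mm10), and promoters from RefSeq. Figures used matplotlib 3.10.9.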

Additional observations from a re-analysis of the deposited data

How the results depend on the processing

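The direction of the members' median held in all 14 alternatives (0.48 to 1.23), but counts of calls depended on the method, and the cause was not tested. For all genes, DESeq2 called 120 higher and 386 lower, limma-trend 9 and 88 (9 and 87 with a pseudocount of 0.5), edgeR without a filter 244 and 435, edgeR with a filter of 5 CPM 6 and 68, and library totals without TMM 0 and 41. Members called higher were 5 with DESeq2, 1 with either limma-trend or the filter of 5 CPM (Tmod1 in each), and 13 without a filter. With 1 library left out, edgeR called 0 to 12 genes higher and 0 to 152 lower, and 0 to 1 members higher, the 1 being Tmod1 without knockout 3. Members with groups that do not overlap ran from 7 to 28 with 1 library left out, and were 6 with library totals. Estimates turned for Actn3, Ttn and Ckm without knockout 2: with 1 library left out their ranges were -0.041 to 0.59, -0.10 to 0.70 and -0.083 to 2.36. The call of Dlx5 was lost without control 3 (adjusted p = 0.107, edgeR), knockout 1 (0.0949) or knockout 2 (0.0631). With a replicate block no gene passed (0 lower in place of 1; Dlx5 0.0620, Tmod1 0.0655). Same-numbered libraries share a number in their titles. Their deviations from the group means correlated at -0.016, -0.026 and 0.016 over 12513 genes, and no library correlated best with its own number. With 3 libraries per group, these values cannot show whether the libraries were paired. Tcap, Trim63 and Trdn, with few counts, had SEs of 0.36, 0.41 and 0.38, close to those of Ttn (0.36), Des (0.39) and Acta1 (0.40). The largest SEs of the set were also of members with few counts: Ckm (0.91), Lmod2 (0.60), Nrap (0.52) and Smpx (0.48). Tpm1 had the smallest SE (0.12), followed by Tmod1 (0.19), which had few counts. The relation of SEs to counts was not tested.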

Other observations

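The 8 non-member genes with a mean of at least 5 CPM whose log2 level followed the mean of the members most closely over the 6 libraries were Mylpf, Raly, Hcfc1, Agtr2, Myh8, Copg1, Gatad2a and Tnni2 (Pearson r from 0.983 to 0.995, a description over libraries that include the group difference). Mylpf, Myh8 and Tnni2 are genes of fast or perinatal muscle. Myh8, the perinatal myosin heavy chain, measured 112, 176 and 103 CPM in the controls and 141, 418 and 239 CPM in the knockouts. Raly, an RNA-binding protein made in most cells, had the same order of libraries at a far smaller amplitude, from 104 to 109 CPM in the controls and from 109 to 123 CPM in the knockouts. Agtr2, the type 2 angiotensin receptor, measured 36.98 to 42.4 CPM in the controls and 42.5, 67.8 and 51.5 CPM in the knockouts, so that its groups did not overlap.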
